A study of Homo sapiens with 6 samples.

Results

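The genes described here encode proteins that write, erase, read or rearrange the marks and nucleosomes of chromatin, and were measured by RNA sequencing in SH-SY5Y cells, a human neuroblastoma line used as a dopaminergic cell model. They were chosen by symbol, from the families KDM, KMT, HDAC, SMARC, CHD, ARID, SETD, BRD, KAT, EZH, EED, SUZ12, DNMT, TET, SIRT, CBX, PHF, PRDM, PRMT, BAZ, ASXL, SUV39, EHMT, NSD, HMGA, HMGB and HMGN, without antisense genes and pseudogenes. Of the 4101 genes in the deposited table, 45 had such a symbol, and 44 remained once the pseudogene HMGB1P6 was left out. The GENCODE 29 annotation holds 192 protein-coding genes with such symbols, so most genes of these families were not analysed here. SUZ12, the ATPases SMARCA1, SMARCA2, SMARCA4 and SMARCA5, and the HDAC class I genes are among those left out. The table was selected by the authors on a difference between the same libraries (an unadjusted p-value of their own test of at most 0.09998), so a chromatin gene had to differ to be listed.

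The METH-treatment group consisted of 3 libraries of wild-type SH-SY5Y cells exposed to 2 mM methamphetamine (METH), a psychostimulant, for 24 h. The PBS-treatment group consisted of 3 libraries of the same wild-type line given PBS, and all cells shared the same medium with serum. The labels state the time as day 0 while the treatment protocol gives 24 h, and the protocol was followed. The libraries are named after the columns of the table as PBS 10, PBS 11, PBS 12, METH 1, METH 2 and METH 3. All of them came from a single cell line at a single dose and time, and nothing says whether replicates were grown independently, so that p-values measure the spread between these libraries, which may be technical. Values are counts scaled to the library total (CPM), from libraries of 85.7 to 110.77 M reads, and are not corrected for gene length. Bulk RNA cannot tell fewer cells expressing a gene from less RNA of that gene per cell.

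Chromatin is the complex of DNA with histones. DNA methyltransferases and the SUV39H and EZH2 histone methyltransferases place repressive marks, acetyltransferases and deacetylases set histone acetylation, and readers such as HP1 and the Polycomb CBX proteins bind the marks. Remodelers of the CHD, ISWI and BAF families move nucleosomes with ATP, and high mobility group proteins bend DNA or loosen nucleosomes. Several of these genes, including DNMT1, EZH2 and HMGB2, are known to be expressed most strongly in dividing cells, and the class IIa deacetylases HDAC5 and HDAC9 are known as signal-dependent repressors in neurons and muscle.

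The question was which chromatin genes differed between METH-treated and PBS-treated cells, and in which direction. Among the 44 genes, 30 had a lower and 14 a higher mean log2 value in the METH-treatment group (31.8% higher, against 50.4% of all genes in the table). At a limma adjusted p under 0.1, 20 of the 44 genes fell (45.5%), where 35.8% of all genes in the table were called lower, and 10 rose (22.7%), where 33.3% of all genes were called higher. The other 14 of the 44 genes did not pass, 10 of them lower and 4 higher. The larger share of lower calls did not hold without METH 2, where 4 chromatin genes were lower (9.09%, against 13.7% of all genes) and 5 higher (11.4%, against 10.05%). It nearly vanished in limma without a trend (34.1%, against 33.8%). The shares were also close at a threshold of 0.05 (20.5%, against 19.1%) and without PBS 12 (22.7%, against 20.8%). In the fit of all libraries with a trend, the median log2 fold change was -0.45 over the 44 genes and 0.11 over all 4101. All 3 METH libraries lay below all 3 PBS libraries in 21 chromatin genes (47.7%, against 33.0% of all genes), and above them in 5 (11.4%, against 31.0%). Changes were moderate: 9 of the 44 genes had an absolute log2 fold change of at least 1. They ranged from -1.23 for KDM4D, a gene at a low level, to 1.62 for ARID5B.

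Because the table holds only genes preselected on these libraries, adjustment within it is lenient. When the same p-values were adjusted over the 15724 genes that the authors' adjustment implies, 6 of the 44 genes passed (13.6%, against 15.2% of all genes): ARID5B, HDAC5 and PRDM8 higher, and CBX2, DNMT3B and CHD7 lower. For a lone gene, exact permutation of 3 METH and 3 PBS labels gives 0.1 as its smallest 2-sided p.

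**Figure D1:**
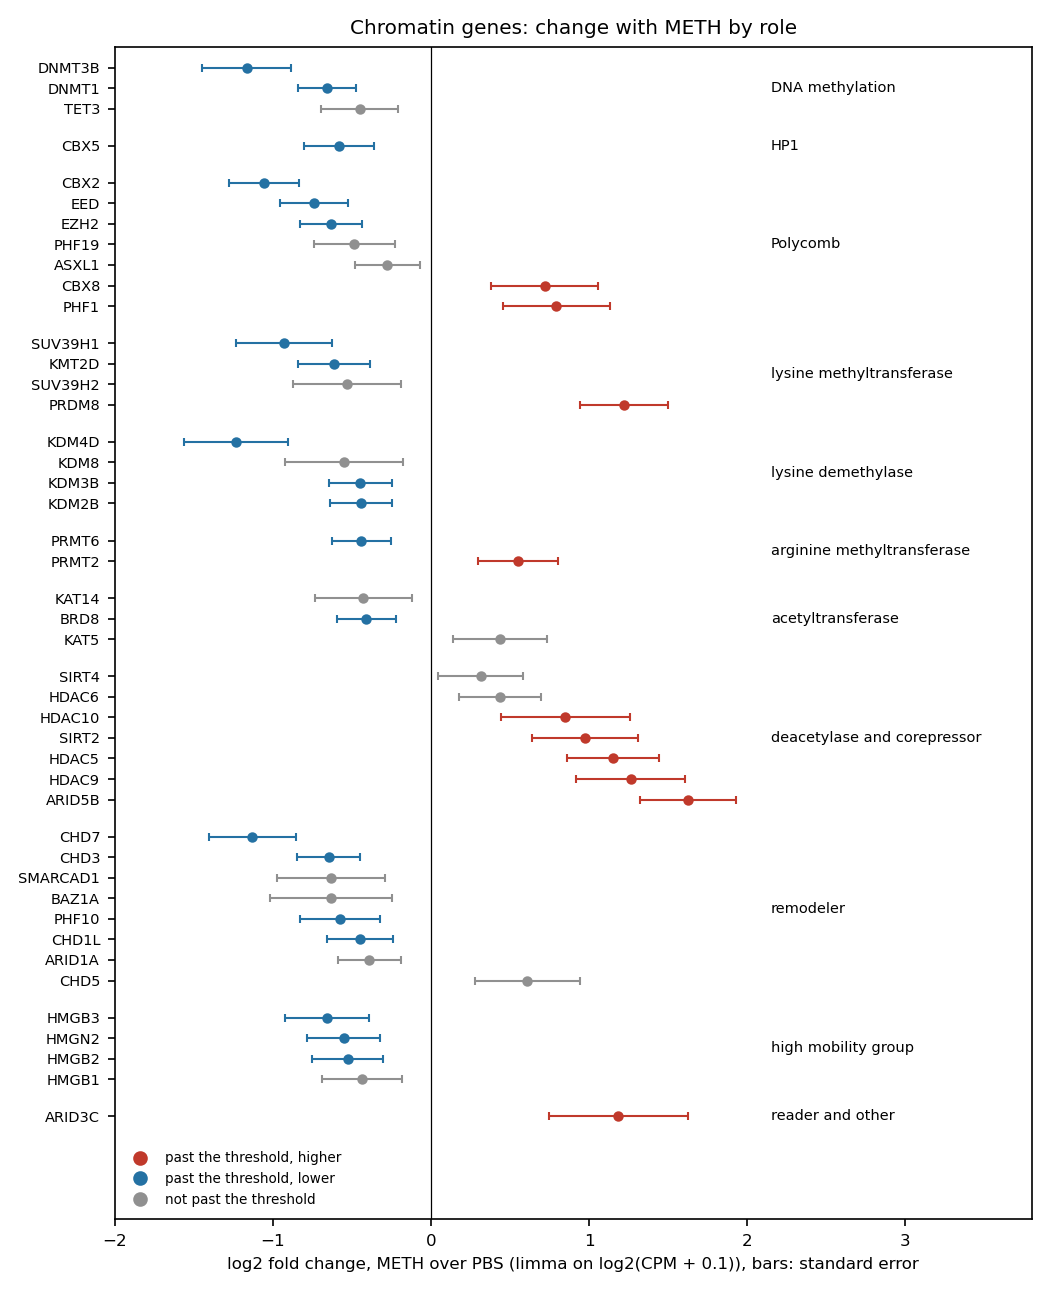
Log2 fold change of METH over PBS (x axis, limma on log2(CPM + 0.1)) for the 44 chromatin genes (y axis), grouped by role, with bars for the standard error. All 7 genes of the deacetylase and corepressor group lie to the right of 0, while the DNA methylation, lysine demethylase and high mobility group genes all lie to the left.

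Deacetylases lay higher with METH, as did ARID5B, which was grouped with them here although it is not a deacetylase. All 7 listed genes of this group, of 24 annotated, had a higher mean log2 value with METH (50.4% of all genes in the table did). Of the 7, 5 rose (71.4%, against 33.3% of all genes). Without ARID5B, 4 of the 6 deacetylases rose. ARID5B (ENSG00000150347, chr10:61901300-62096944, plus strand of GRCh38), a DNA-binding protein that works with the demethylase PHF2, had the largest rise. Its CPM was 3.58, 1.68 and 2.29 in PBS 10, PBS 11 and PBS 12, against 7.31, 7.79 and 7.73 in METH 1, METH 2 and METH 3. The groups did not overlap, and the METH libraries lay close together. The means were 2.51 ± 0.967 and 7.61 ± 0.264 CPM (SD, n = 3), a 3.03-fold ratio and a log2 fold change of 1.62 (SE 0.30, limma adjusted p = 0.0103).

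Class IIa deacetylases shuttle between nucleus and cytoplasm and repress MEF2 target genes. HDAC5 (chr17:44076746-44123702, minus strand) measured 22.1, 42.5 and 37.3 CPM in the PBS libraries and 84.6, 84.1 and 54.1 CPM in METH 1, METH 2 and METH 3. METH 3 was the lowest of the treated libraries and still above PBS 11, the highest control. HDAC5 rose 2.19-fold in the mean (log2 fold change 1.15, SE 0.29, limma adjusted p = 0.0237). HDAC9 (chr7:18086949-19002416, plus strand) measured 15.6, 5.67 and 8.16 CPM in PBS 10 to PBS 12 and 19.0, 21.9 and 24.5 CPM in METH 1 to METH 3. Here PBS 10 was the highest control, the reverse of its place in HDAC5, and the groups again did not overlap. HDAC9 rose by 1.26 on the log2 scale (SE 0.34, limma adjusted p = 0.0281).

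SIRT2, an NAD-dependent deacetylase of tubulin and histones that is abundant in brain, measured 11.5, 26.2 and 23.0 CPM in the PBS libraries and 46.0, 42.2 and 27.3 CPM in the METH libraries. METH 3 stood just above PBS 11. SIRT2 rose by 0.97 on the log2 scale (SE 0.33, limma adjusted p = 0.0481), and the adjusted p was up to 0.136 without METH 1 or METH 2. HDAC10, known as a polyamine deacetylase, measured 9.10, 24.5 and 14.7 CPM with PBS and 39.1, 30.8 and 16.0 CPM with METH. METH 3 lay below PBS 11, so the groups overlapped. Its log2 fold change was 0.85 (SE 0.41, limma adjusted p = 0.0985), with an adjusted p of up to 0.272 without PBS 10, PBS 12, METH 1 or METH 2. HDAC10 shares 2763 exonic bases with MAPK12 on the same strand, so its reads are uncertain. HDAC6, the tubulin deacetylase, and SIRT4, a mitochondrial sirtuin, had log2 fold changes of 0.44 and 0.31 and did not pass (limma adjusted p = 0.145 and 0.284).

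**Figure D2:**
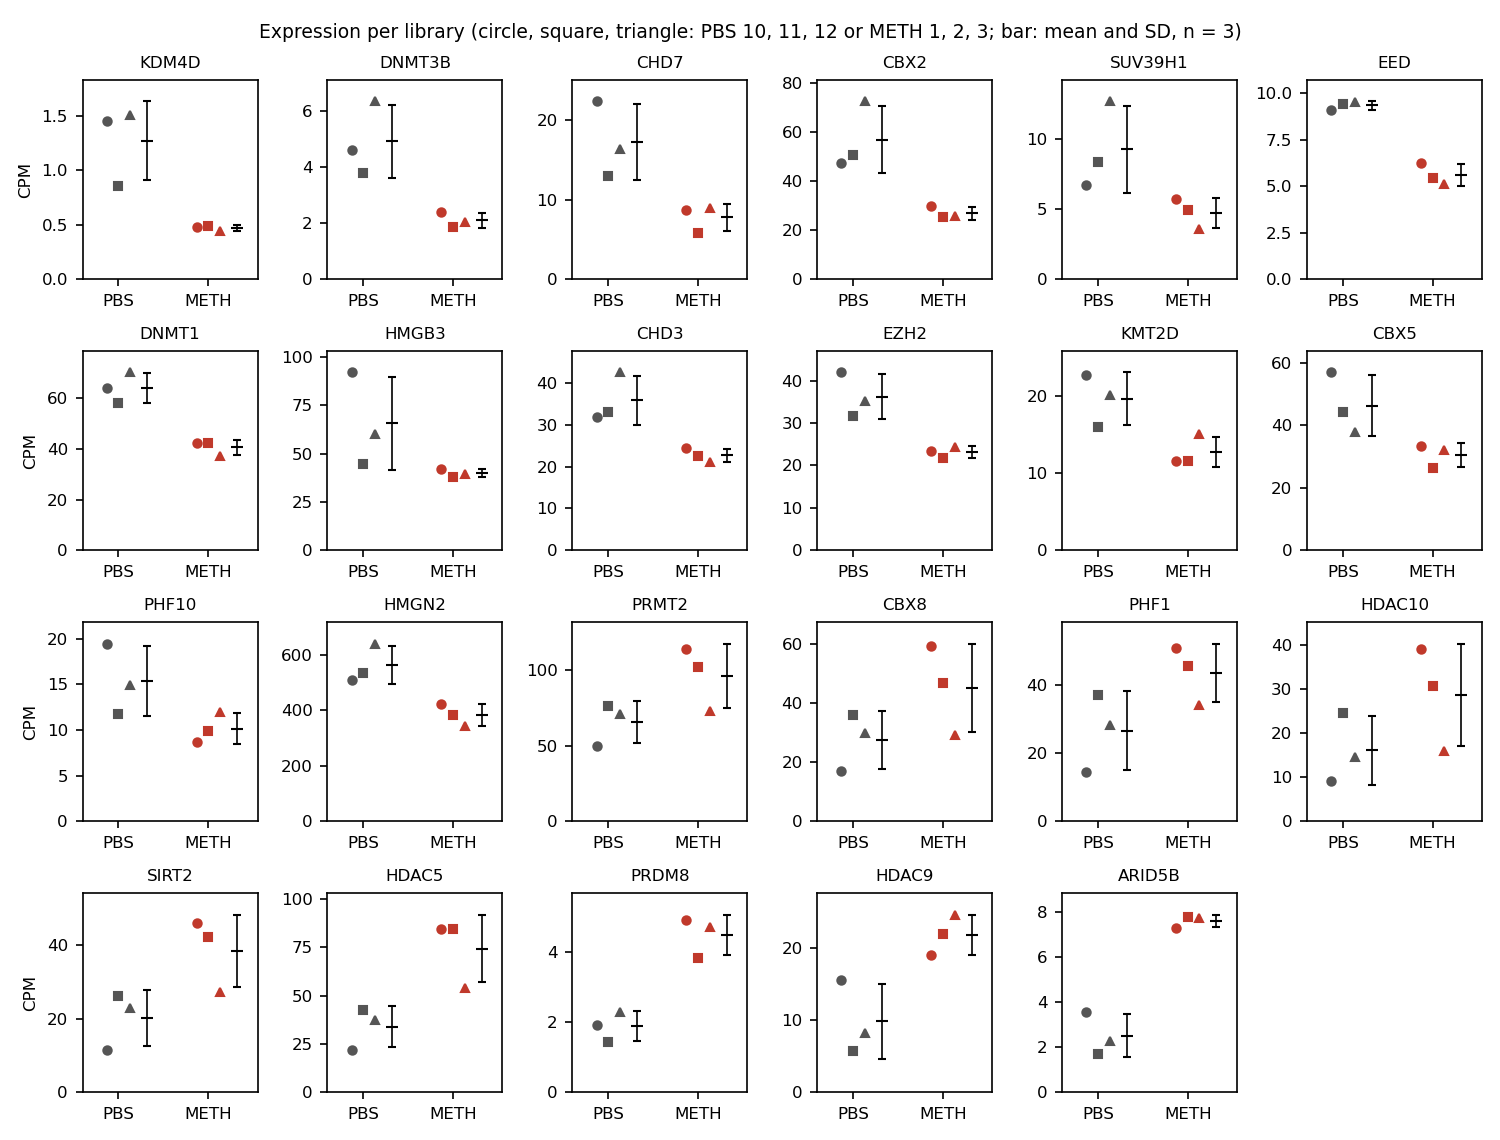
CPM in each library (y axis, linear from 0) for the 23 chromatin genes past the threshold that are given library by library, with the mean and SD of 3 libraries beside the points, ordered from the largest fall to the largest rise. ARID5B and PRDM8 show tight, separated METH values, while CBX8, PHF1, PRMT2, HDAC10 and PHF10 overlap between the groups.

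All 3 listed DNA methylation genes, of 7 annotated, had lower mean log2 values with METH (2035 of all 4101 genes did). Of the 3, 2 fell (66.7%, against 35.8% of all genes). DNMT3B (chr20:32762385-32809356, plus strand), a de novo DNA methyltransferase, measured 4.60, 3.78 and 6.33 CPM in the PBS libraries and 2.38, 1.85 and 2.05 CPM in the METH libraries. Every METH library was below every PBS library. The mean changed from 4.90 ± 1.31 to 2.09 ± 0.269 CPM (SD, n = 3), so that DNMT3B fell by 1.17 on the log2 scale (SE 0.28, limma adjusted p = 0.0216). DNMT1 (chr19:10133345-10231286, minus strand), the maintenance methyltransferase that copies methylation after replication, measured 64.1, 58.3 and 70.2 CPM with PBS and 42.2, 42.3 and 37.3 CPM with METH. The groups were well separated. DNMT1 fell by 0.66 (SE 0.19, limma adjusted p = 0.0304), and the adjusted p was 0.103 without METH 2. TET3, which oxidises methylcytosine, had a log2 fold change of -0.45 with overlap and did not pass (limma adjusted p = 0.124).

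Polycomb genes went both ways, as the whole table did. Among the 7 listed of 14 annotated, CBX2, EED and EZH2 fell (42.9%, against 35.8% of all genes). CBX8 and PHF1 rose (28.6%, against 33.3% of all genes), so both shares were near those of all genes. CBX2 (chr17:79778132-79787983, plus strand), a chromodomain subunit of the canonical Polycomb repressive complex that ubiquitinates H2A, measured 47.4, 50.5 and 72.4 CPM with PBS and 29.8, 25.1 and 25.6 CPM with METH. PBS 12 was the highest, and no METH library reached a PBS value. CBX2 fell by 1.06 on the log2 scale (SE 0.22, limma adjusted p = 0.0145). CBX8 (chr17:79792132-79801683, minus strand), an alternative chromodomain subunit of the same complex, is annotated next to CBX2 on the opposite strand. CBX8 measured 16.9, 36.0 and 29.9 CPM with PBS and 59.2, 46.9 and 29.3 CPM with METH. METH 3 lay below both PBS 11 and PBS 12. CBX8 was higher by 0.72 on the log2 scale (SE 0.34, limma adjusted p = 0.0944), and the adjusted p reached 0.266 without PBS 10, PBS 12, METH 1 or METH 2. Per kilobase of exon, CBX2 went from 9.98 ± 2.40 CPM with PBS to 4.72 ± 0.453 CPM with METH, and CBX8 from 6.62 ± 2.34 to 10.8 ± 3.61 CPM (SD, n = 3).

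EZH2 and EED belong to the Polycomb complex that methylates histone H3, EZH2 as the catalytic subunit and EED as the subunit that reads the finished mark. EZH2 (chr7:148807383-148884321, minus strand) measured 41.9, 31.5 and 35.2 CPM with PBS and 23.5, 21.6 and 24.4 CPM with METH. EED (chr11:86244544-86278813, plus strand) measured 9.08, 9.40 and 9.51 CPM with PBS and 6.23, 5.41 and 5.09 CPM with METH. In neither gene did the groups overlap, and the PBS values of EED were nearly the same in the 3 libraries. EZH2 fell by 0.63 (SE 0.20, limma adjusted p = 0.0378) and EED by 0.74 (SE 0.21, limma adjusted p = 0.0334) on the log2 scale. The adjusted p of EZH2 was up to 0.139 without METH 1 or METH 2, and that of EED was 0.117 without METH 2. PHF1, an accessory subunit of the same complex, measured 14.5, 37.3 and 28.3 CPM with PBS and 51.1, 45.7 and 34.2 CPM with METH, with METH 3 below PBS 11. PHF1 was higher by 0.79 on the log2 scale (SE 0.34, limma adjusted p = 0.0769), with an adjusted p of up to 0.191 without PBS 10, PBS 12, METH 1 or METH 2. Its paralog PHF19 had a log2 fold change of -0.49 and ASXL1, a cofactor of the H2A deubiquitinase BAP1, one of -0.28, and neither passed (limma adjusted p = 0.118 and 0.226).

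SUV39H1 and CBX5 fell. SUV39H1 (chrX:48695554-48709012, plus strand), a methyltransferase that places the histone H3 mark bound by HP1, measured 6.74, 8.40 and 12.7 CPM with PBS and 5.72, 4.94 and 3.56 CPM with METH. PBS 10 and METH 1 lay closest, without overlap. SUV39H1 fell by 0.93 on the log2 scale (SE 0.30, limma adjusted p = 0.0423), with an adjusted p of up to 0.117 without PBS 12 or METH 2. An antisense gene shares 685 exonic bases with it, and the strand of the counting was not stated. CBX5, which encodes HP1 alpha, measured 57.0, 44.1 and 37.8 CPM with PBS and 33.4, 26.2 and 32.2 CPM with METH. The lowest PBS value stood above the highest METH value. CBX5 fell by 0.58 (SE 0.22, limma adjusted p = 0.0604), with an adjusted p of up to 0.198 without PBS 10, METH 1 or METH 2. SUV39H2, the paralog of SUV39H1, had a log2 fold change of -0.53 and did not pass (limma adjusted p = 0.173), and its PBS 10 value of 11.5 CPM was far above the 5.25 and 4.96 CPM of PBS 11 and PBS 12.

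Of the other lysine methyltransferase genes, KMT2D, an enhancer methyltransferase of histone H3, measured 22.7, 15.9 and 20.1 CPM with PBS and 11.6, 11.6 and 15.0 CPM with METH. METH 3 came near PBS 11 without reaching it. KMT2D fell by 0.61 (SE 0.23, limma adjusted p = 0.0564), with an adjusted p of up to 0.171 without PBS 10, PBS 12, METH 1 or METH 2. PRDM8 (chr4:80183879-80204329, plus strand), a PR-domain transcriptional repressor of neural development, went the other way. It measured 1.91, 1.44 and 2.30 CPM with PBS and 4.91, 3.82 and 4.70 CPM with METH. No value overlapped, although the level was low. PRDM8 rose 2.38-fold in the mean (log2 fold change 1.22, SE 0.28, limma adjusted p = 0.0189).

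All 4 listed lysine demethylase genes, of 22 annotated, had lower mean log2 values with METH (2035 of all 4101 genes did). Of the 4, 3 fell (75%, against 35.8% of all genes). KDM4D (chr11:94973681-94999518, plus strand), which removes methyl groups from the heterochromatic histone H3 mark, measured 1.45, 0.852 and 1.50 CPM with PBS and 0.479, 0.484 and 0.439 CPM with METH. The METH libraries were nearly equal and all below PBS 11. KDM4D fell by 1.23 on the log2 scale (SE 0.33, limma adjusted p = 0.0269). Its level was low, with 41 reads in the lowest library, so the size of the fall depended on the value added to the CPM. The log2 fold change was -0.62 with 1 added and -1.38 with 0.01 added. KDM3B, a demethylase of the same histone tail, fell by 0.45 and KDM2B, which brings Polycomb to CpG islands, by 0.44, neither with overlap (limma adjusted p = 0.0846 and 0.0852). Without some libraries their adjusted p reached 0.222 (PBS 10, PBS 12 or any METH library left out) and 0.206 (PBS 12 or any METH library left out). KDM8 had a log2 fold change of -0.55 with overlap and did not pass (limma adjusted p = 0.191).

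Remodeler genes lay mostly lower. Of the 8 listed of 33 annotated, 4 fell, a share not far from the 35.8% of all genes. Lower mean log2 values were found in 7 of the 8 (in 2035 of all 4101 genes), and 4 of the 8 overlapped between the groups. CHD7 (chr8:60678778-60868028, plus strand), a remodeler of enhancers needed in neural crest development, measured 22.4, 12.9 and 16.4 CPM with PBS and 8.65, 5.78 and 8.92 CPM with METH. The groups were apart in all libraries. CHD7 fell by 1.13 on the log2 scale (SE 0.28, limma adjusted p = 0.0224). CHD3, an ATPase of the NuRD complex that joins remodeling with deacetylation, measured 31.9, 33.0 and 42.5 CPM with PBS and 24.3, 22.6 and 21.2 CPM with METH, without overlap. CHD3 fell by 0.65 (SE 0.20, limma adjusted p = 0.0379), and the adjusted p was 0.124 without METH 2. PHF10, a subunit of the PBAF complex, measured 19.5, 11.8 and 14.9 CPM with PBS and 8.67, 9.84 and 11.96 CPM with METH. METH 3 lay just above PBS 11. PHF10 fell by 0.58 (SE 0.25, limma adjusted p = 0.0806), with an adjusted p of up to 0.216 without PBS 10, PBS 12, METH 1 or METH 2. CHD1L, a remodeler recruited to DNA damage, fell by 0.45 without overlap (limma adjusted p = 0.0908, and up to 0.230 with PBS 11, PBS 12 or any METH library left out).

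The remaining remodelers did not pass. ARID1A, the defining subunit of the BAF complex, stood at a log2 difference of -0.39 (limma adjusted p = 0.110), although all its METH values, 23.4 to 28.8 CPM, lay below its PBS values, 29.6 to 38.4 CPM. SMARCAD1 and BAZ1A both had a log2 fold change of -0.63 with overlap. PBS 10 was the highest control in each, at 14.04 CPM for SMARCAD1 and 8.86 CPM for BAZ1A. CHD5, a neuronal remodeler, had a log2 fold change of 0.61 at a low level, 0.877 ± 0.301 against 1.36 ± 0.259 CPM (SD, n = 3 each), and did not pass (limma adjusted p = 0.125).

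Of the high mobility group genes, HMGN2, HMGB2 and HMGB1 had the highest levels per kilobase of exon among the 44 genes in both groups. HMGN2, a nucleosome-binding protein, was highest in the PBS-treatment group at 224 ± 27.4 CPM per kilobase, followed by HMGB2 at 68.3 ± 15.0 and HMGB1 at 41.7 ± 12.9 CPM (SD, n = 3). HMGB2 and HMGB1, both DNA-bending proteins, lay nearer to each other than HMGN2 lay to either. In all 4 listed genes of this group every METH library was below every PBS library, as in 33.0% of all genes, and 3 of them fell, against 35.8% of all genes. HMGN2 measured 510, 535 and 640 CPM with PBS and 423, 383 and 342 CPM with METH. It fell by 0.55 on the log2 scale (SE 0.23, limma adjusted p = 0.0735). HMGB3 measured 91.9, 44.7 and 59.97 CPM with PBS and 42.1, 38.1 and 39.2 CPM with METH, the control spread coming from PBS 10. HMGB3 fell by 0.66 (SE 0.27, limma adjusted p = 0.0696) and HMGB2 by 0.53 (limma adjusted p = 0.0762). HMGB1 had a log2 fold change of -0.43 and did not pass (limma adjusted p = 0.142). Leaving out single libraries raised the adjusted p to at most 0.172 for HMGB3 (PBS 10, PBS 12 or any METH library), 0.192 for HMGN2 (PBS 12 or any METH library) and 0.215 for HMGB2 (PBS 10, METH 1 or METH 2). These genes have processed copies in the genome that can share reads, with 48 annotated pseudogenes of HMGB1, 36 of HMGN2, 29 of HMGB3 and 1 of HMGB2.

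Arginine methyltransferase, acetyltransferase and ARID3 genes had few listed members. PRMT2, a coactivator-type arginine methyltransferase, measured 49.7, 76.2 and 71.3 CPM with PBS and 114, 102 and 72.8 CPM with METH, with METH 3 below PBS 11. PRMT2 was higher by 0.55 on the log2 scale (SE 0.25, limma adjusted p = 0.0882), with an adjusted p of up to 0.249 without PBS 10, PBS 12, METH 1 or METH 2. PRMT6 fell by 0.44 without overlap (limma adjusted p = 0.0758), and reached 0.213 without PBS 12 or any METH library. BRD8, a bromodomain subunit of the NuA4 acetyltransferase complex, fell by 0.41 without overlap (limma adjusted p = 0.0901, and up to 0.236 with PBS 10, PBS 12 or any METH library left out). BRD8 shares 132 exonic bases with the mitotic gene KIF20A on the other strand, which itself fell by 1.24. KAT14 and KAT5, catalytic acetyltransferases, had log2 fold changes of -0.43 and 0.44 and did not pass. Their reads are uncertain, since KAT14 shares 712 exonic bases with PET117 on the same strand and KAT5 1439 with RNASEH2C on the other. ARID3C, the only chromatin gene with a mean below 1 CPM in both groups, was higher by 1.18 on the log2 scale (limma adjusted p = 0.0582), from 0.181 ± 0.134 to 0.517 ± 0.191 CPM (SD, n = 3) with overlap. Its adjusted p reached 0.142 without PBS 10, PBS 12, METH 1 or METH 3.

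The libraries of a group deviated in common among the genes that were higher with METH. Of these 14 genes, PBS 10 was the lowest control in 10 and PBS 11 the highest in 10. METH 1 was the highest treated library in 10 and METH 3 the lowest in 9. The median deviation from the group mean on the log2 scale was -0.46 for PBS 10, 0.42 for PBS 11 and -0.31 for METH 3. Over the 2066 genes of the table that were higher with METH, the same libraries deviated by -0.19, 0.22 and -0.19. The controls of ARID5B, HDAC9, SIRT4 and PRDM8 did not share this pattern, with PBS 10 as the highest in the first 3 and PBS 11 as the lowest in PRDM8. In 8 of the 30 genes past the threshold, the call held whichever of the 6 libraries was left out: ARID5B, HDAC9, HDAC5 and PRDM8 higher, and DNMT3B, CBX2, KDM4D and CHD7 lower. Over the whole table, 2833 genes were called with all libraries, 1119 without METH 1 and 975 without METH 2. The share of all genes whose call held in every fit was not computed, here or for the lists below.

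**Figure D3:**
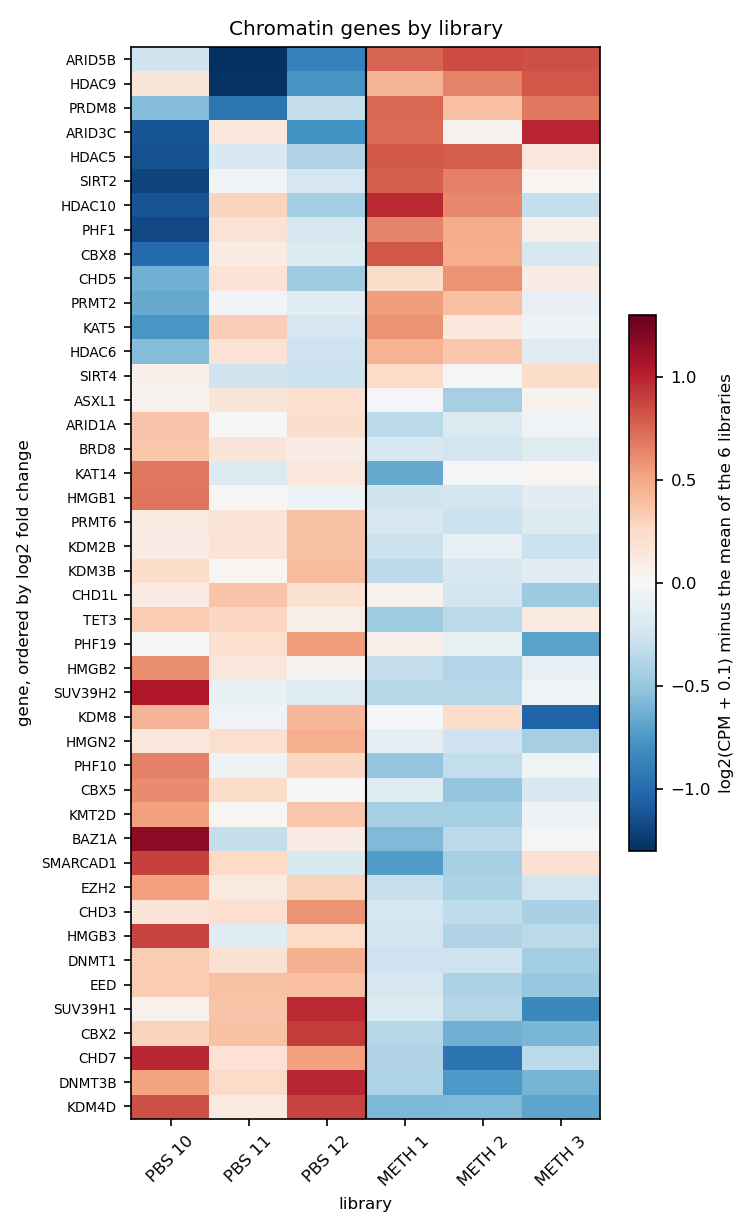
Log2(CPM + 0.1) of the 44 chromatin genes (rows, ordered by log2 fold change) in the 6 libraries (columns), minus the mean of the gene over all libraries, red above and blue below. PBS 10 is the lowest control in the 10 genes from ARID3C to HDAC6 near the top, and METH 3 is lower there than METH 1 and METH 2 in all but ARID3C. In HDAC10, CBX8, PRMT2, KAT5 and HDAC6, METH 3 lies below the mean of the gene and is blue.

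Cell cycle genes moved beside these genes. Of a list of 52 genes of replication and mitosis, 48 are in the table and all 48 fell at a limma adjusted p under 0.1 (35.8% of all genes did), with a median log2 fold change of -1.05. Of these, 24 passed when adjusted over 15724 genes (50%, against 7.49% of all genes called lower), and 32 kept the call whichever library was left out. Their summed level was 2118 to 2813 CPM in the PBS libraries and 1003 to 1318 CPM in the METH libraries. The part of this difference in the lower values of DNMT1, EZH2, SUV39H1, HMGB2 and the other chromatin genes was not tested. Among them, MKI67 fell by 1.60 and PCNA by 0.98 on the log2 scale.

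**Figure D4:**
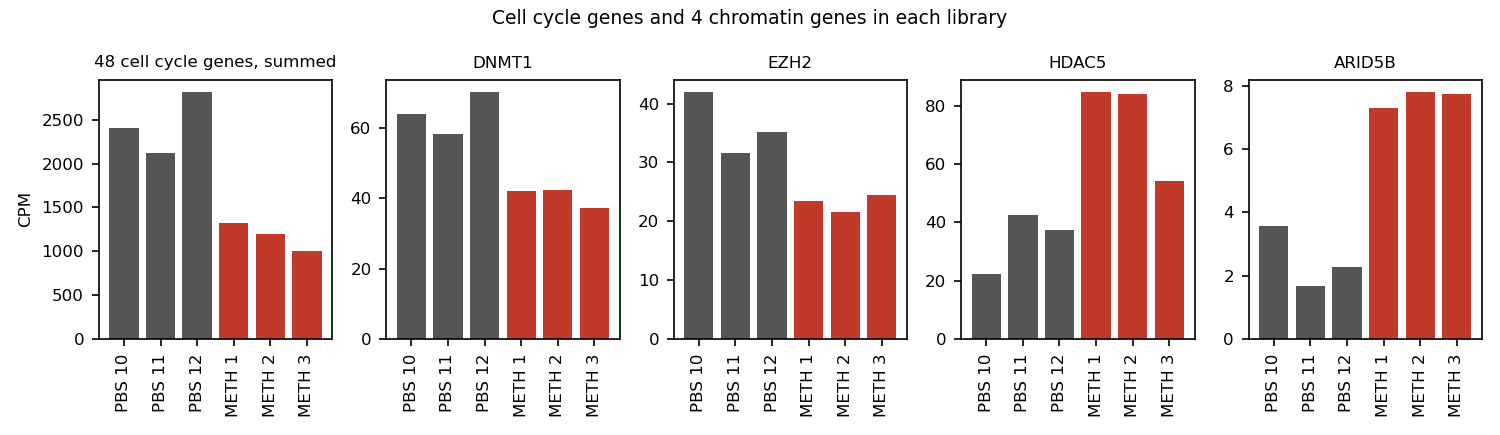
CPM in each library (y axes from 0) for the sum of 48 cell cycle genes and for DNMT1, EZH2, HDAC5 and ARID5B. The cell cycle sum, DNMT1 and EZH2 are lower in each METH library than in each PBS library, and HDAC5 and ARID5B are higher.

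Markers of the cell line were checked in the same way. Of 26 noradrenergic neuroblastoma markers, 12 are in the table, and 9 of these fell, GATA2, HAND1, RET and DDC among them, while CHGB, TBX2 and SLC18A2 rose (75.0% and 25.0%, against 35.8% and 33.3% of all genes). CHGB, a granule protein, went from 243 ± 23.2 to 459 ± 48.1 CPM (SD, n = 3). Of the 12 calls, 4 (RET, HAND1, CHGB and SLC18A2) held whichever library was left out, while the adjusted p was up to 0.122 for GATA2 (without METH 1 or METH 2), 0.192 for DDC (without PBS 11, PBS 12 or any METH library) and 0.192 for TBX2 (without PBS 10, PBS 11, METH 1 or METH 2). The sum of the 12 was 1360 to 1477 CPM with PBS and 1180 to 1271 CPM with METH. Of 26 markers of the mesenchymal, substrate-adherent state of neuroblastoma cells, 8 are in the table and 5 of these rose (62.5%, against 33.3% of all genes), 2 of them whichever library was left out. Their sum was 493 to 771 CPM with PBS and 844 to 1203 CPM with METH, most of it VIM at 372 ± 105 and 681 ± 136 CPM (SD, n = 3) and TWIST1 at 251 ± 55.8 and 332 ± 71.0 CPM. VIM rose (limma adjusted p = 0.0430, and up to 0.148 without METH 1 or METH 2). TWIST1 overlapped between the groups and did not pass (limma adjusted p = 0.182), and 1 of the 8 markers had a lower mean log2 value. The part of these markers in the values of the chromatin genes was not tested.

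Partners of the chromatin genes that the symbol rule does not take were read from a list of 172 symbols, of which 38 are in the table. Among these, 19 fell (50%, against 35.8% of all genes) and 9 rose (23.7%, against 33.3%), with a median log2 fold change of -0.47 against 0.11. Of these 28 calls, 8 held whichever library was left out. H2AFX, the histone variant phosphorylated at DNA breaks, fell by 1.60 on the log2 scale (180 ± 58.8 to 58.5 ± 12.3 CPM, SD, n = 3; limma adjusted p = 0.00897). UHRF1, which guides DNMT1 to newly copied DNA, fell by 1.47 (38.8 ± 11.04 to 13.5 ± 0.510 CPM; limma adjusted p = 0.00825), and ASF1B, a histone chaperone of replication, by 1.39 (limma adjusted p = 0.0103). GADD45G fell by 1.29 (limma adjusted p = 0.0572) while its paralog GADD45A, a stress gene linked to DNA demethylation, rose by 1.27 (49.5 ± 18.2 to 117 ± 35.8 CPM; limma adjusted p = 0.0224). The adjusted p of GADD45G was up to 0.108 without PBS 12 or any METH library. PCGF1, a Polycomb subunit that works with KDM2B, rose by 1.02 (limma adjusted p = 0.0229), ING1, a reader in a SIN3 deacetylase complex, by 0.94 (limma adjusted p = 0.0232) and JADE2, a scaffold of the HBO1 acetyltransferase complex, by 0.76 (limma adjusted p = 0.0545, and up to 0.171 without PBS 10, PBS 12, METH 1 or METH 2).

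Promoter sequence was read for 37 of the 44 genes from RefSeq (GRCh38.p14), as 250 bases before and 50 after a single annotated start per gene. That start can lie away from the end of the gene in GENCODE, and other starts of these genes were not searched. The entries for BAZ1A, CBX2, CBX8, CHD5, CHD7, HDAC5 and HMGB2 are missing. Letters were searched on both strands for the cAMP response element (TGACGTCA), its core letters TGACG, which lie within it, E2F (TTTGGCGC, TTTCGCGC or TTTCCCGC), the E-box CACGTG and NRF1 (TGCGCATG). The core was in 10 of the 37 promoters (27.0%), against 24.6% of 35116 RefSeq promoters of that length and 30.2% of those of the genes in the table. It was in 5 of 11 promoters of genes higher with METH (45.5%) and in 5 of 26 of genes lower (19.2%). Among called genes only, it was in 3 of 8 that rose (37.5%) and 2 of 17 that fell (11.8%). These counts are small, and the RefSeq background can hold several starts of a gene. The full element was in the promoters of SIRT4 and SUV39H2 (5.41%, against 1.85% of all and 3.13% of those of the genes in the table), neither of which passed the threshold. The SIRT4 start used lies within chr12:120292029-120292198, outside the GENCODE span of the gene (chr12:120302316-120313249). E2F letters were in those of DNMT1 and EZH2 (5.41%, against 2.74% of all and 4.20% for the table). NRF1 letters were in those of DNMT1 and CBX5 (5.41%, against 2.18% and 2.31%), and the E-box in 5 (13.5%, against 7.26% and 8.95%). A match describes letters and not binding, and its absence says only that these letters are not in the window around the start used.

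The stretches from 160 bases before to 10 after the start are shown for ARID5B, PRDM8 and SIRT2, which rose, and for DNMT1, EZH2 and CBX5, which fell, so that the matched letters can be seen where they lie. Capitals mark the matches. SIRT2 (chr19:38899609-38899778, minus strand) has a core in reverse, DNMT1 (chr19:10194944-10195113, minus strand) an NRF1 match and E2F letters across the start, EZH2 (chr7:148884282-148884451, minus strand) E2F letters at the start, and CBX5 (chr12:54280113-54280282, minus strand) an E-box and an NRF1 match. ARID5B (chr10:61901539-61901708, plus strand) and PRDM8 (chr4:80185110-80185279, plus strand) hold none of the letters searched. These stretches of ARID5B and PRDM8 lie inside the GENCODE spans, which begin at 61901300 and 80183879. That of DNMT1 lies inside a span whose upstream end is 10231286. Presence or absence of letters therefore holds for the start used and not for every promoter of the gene.
ARID5B: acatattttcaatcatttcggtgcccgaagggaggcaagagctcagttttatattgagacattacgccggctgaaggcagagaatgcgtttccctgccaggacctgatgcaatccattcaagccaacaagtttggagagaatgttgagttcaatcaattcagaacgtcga
PRDM8: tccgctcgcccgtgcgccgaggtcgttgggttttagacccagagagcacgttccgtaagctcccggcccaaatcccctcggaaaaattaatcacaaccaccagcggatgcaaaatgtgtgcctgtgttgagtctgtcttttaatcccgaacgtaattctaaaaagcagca
SIRT2: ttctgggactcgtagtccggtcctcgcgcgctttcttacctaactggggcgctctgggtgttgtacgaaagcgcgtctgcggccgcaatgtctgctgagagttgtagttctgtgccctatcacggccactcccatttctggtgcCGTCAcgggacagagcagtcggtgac
DNMT1: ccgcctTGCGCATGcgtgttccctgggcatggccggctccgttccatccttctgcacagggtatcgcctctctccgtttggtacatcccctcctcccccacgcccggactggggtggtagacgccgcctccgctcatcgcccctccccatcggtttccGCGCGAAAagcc
EZH2: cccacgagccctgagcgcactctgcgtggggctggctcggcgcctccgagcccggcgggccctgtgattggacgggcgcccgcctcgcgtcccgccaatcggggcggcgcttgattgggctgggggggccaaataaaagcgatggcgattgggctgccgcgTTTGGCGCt
CBX5: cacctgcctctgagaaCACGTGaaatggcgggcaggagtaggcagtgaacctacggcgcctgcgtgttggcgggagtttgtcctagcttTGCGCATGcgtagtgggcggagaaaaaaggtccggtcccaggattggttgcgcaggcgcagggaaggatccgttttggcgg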

How the data were processed

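RNA of 3 METH and 3 PBS libraries was sequenced by the authors. The deposited table gives, per gene, values headed FPKM. They are whole multiples of 1 step per column (100% of values up to 30 CPM, within 0.001 CPM), so the authors' values were used as CPM and not as the planned FPKM. Reads recovered from the steps numbered 20027072 to 25449507 per library over the genes of the table. The deposited columns of the authors' own DESeq2 comparison hold a ratio (fold), its log2 and p-values with and without adjustment. They served here only to see how the table was selected and how many genes were tested. The aligner, counter, strand setting and genome build are not given in the sources used here.

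After adding 0.1 to each CPM, log2 values were fitted with limma 3.58.1 in R 4.3.3 (eBayes, trend on, no covariate). All 4101 genes entered the Benjamini-Hochberg adjustment, and 0.1 was the threshold. The fit was also run on simulated data as a check of the code only, and the threshold does not rest on that. SD is over the 3 libraries of a group. Alternatives were an added value of 1 or 0.01, a minimum mean of 1 CPM, no trend, a threshold of 0.05, median-ratio scaling, adjustment over 15724 genes, edgeR 4.0.16 (quasi-likelihood) and DESeq2 1.42.0 on recovered reads, and each library left out. Library values are given for called genes whose higher group mean was 1 CPM or more, at most 14 in each direction. The other chromatin genes are named with their change. Of the list of partners, at most 4 in each direction are named. Other genes named, MKI67, PCNA, KIF20A, RNASEH2C, VIM, TWIST1 and the noradrenergic markers, were chosen after their values were seen. Genes and lists were chosen with earlier results of these data known. Positions and exon lengths came from GENCODE 29 (GRCh38). Python 3.11.15 and matplotlib 3.10.9 were used.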

Additional observations from a re-analysis of the deposited data

How the results depend on the processing

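Of the 44 chromatin genes, 10 rose and 20 fell at a limma adjusted p under 0.1. At a threshold of 0.05 the counts were 5 and 9, and adjusted over 15724 genes 3 and 3. Leaving out each library in turn gave 4 (without METH 1) to 13 (without PBS 11) that rose and 4 (without METH 2) to 21 that fell. Without METH 2 the share of lower calls was 9.09% of the chromatin genes and 13.7% of all genes, the reverse of the order with all libraries (45.5% and 35.8%), and over 15724 genes the shares were 6.82% and 7.49%. In limma without a trend they were nearly equal, at 34.1% and 33.8%, and at a threshold of 0.05 they were 20.5% and 19.1%. For the 38 partner genes, 9 rose and 19 fell, with 3 and 11 at 0.05, 3 and 4 over 15724 genes, and 3 to 11 and 6 to 20 with a library left out. The other settings kept these 4 counts within 1.5 times. With edgeR on recovered reads, 9 chromatin genes were called higher and 20 lower, and with DESeq2 10 and 21. Of the 30 calls, edgeR kept 9 higher and 20 lower, and DESeq2 10 and 19. Over the whole table edgeR called 2730 genes, DESeq2 2872 and limma 2833. No chromatin gene changed direction under any setting run. The median of all genes moved from 0.11 to 0.08 on scaling to the same median ratio.

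At the depth of these libraries, 41 of the 44 genes had at least 100 reads in every library. No paired analysis was possible because the columns of the PBS libraries carry numbers that the METH columns and the labels do not share.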

Other observations

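HMGB1P6, a processed pseudogene of HMGB1 that was left out of the 44 genes, measured 189, 98.1 and 102 CPM in PBS 10, PBS 11 and PBS 12 and 84.0, 77.6 and 88.0 CPM in METH 1, METH 2 and METH 3. PBS 10 was the highest library in both HMGB1P6 and HMGB1, and the log2 fold changes were -0.57 and -0.43. Summed over the 44 genes, the level was 1914 to 2081 CPM in the PBS libraries and 1510 to 1765 CPM in the METH libraries. A large part of this sum was HMGN2 (mean 561 CPM with PBS and 383 with METH), HMGB1 (322 and 231) and HMGB2 (189 and 130). The lower sum thus mainly describes the high mobility group genes and not the 44 genes alike. RYBP, a Polycomb subunit, rose by 0.70 on the log2 scale (5.33 ± 1.37 to 8.52 ± 1.07 CPM, SD, n = 3; limma adjusted p = 0.0622), and JARID2, a cofactor of EZH2, fell by 0.58 (6.55 ± 0.935 to 4.37 ± 0.728 CPM; limma adjusted p = 0.0791). The adjusted p reached 0.149 for RYBP (not past without PBS 12 or any METH library) and 0.235 for JARID2 (not past without PBS 10, PBS 12, METH 1 or METH 2). HELLS, a remodeler that works with DNA methylation, fell by 1.10 and CHAF1A, a histone chaperone of replication, by 1.03 (limma adjusted p = 0.0341 and 0.0239). The adjusted p of HELLS was 0.117 without METH 2. These 4 genes were chosen after their values were seen.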
